A study of Mus musculus with 4 samples.

Results

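The 10 genes described here encode the MCM helicase and the proteins that load, switch on or restrain it. They were chosen by symbol, as Mcm2, Mcm3, Mcm4, Mcm5, Mcm6, Mcm7, Cdc6, Cdt1, Cdc45 and Gmnn, and each symbol had 1 row among the 22287 genes of the mRNA table. The ring is encoded by Mcm2 (ENSMUSG00000002870, chromosome 6), Mcm3 (ENSMUSG00000041859, chromosome 1), Mcm4 (ENSMUSG00000022673, chromosome 16), Mcm5 (ENSMUSG00000005410, chromosome 8), Mcm6 (ENSMUSG00000026355, chromosome 1) and Mcm7 (ENSMUSG00000029730, chromosome 5). The other 4 genes are Cdc6 (ENSMUSG00000017499, chromosome 11), Cdt1 (ENSMUSG00000006585, chromosome 8), Cdc45 (ENSMUSG00000000028, chromosome 16) and Gmnn (ENSMUSG00000006715, chromosome 13). The study set N2a cells given 300 µM manganese over 48 h against untreated N2a cells. N2a is a mouse neuroblastoma line, and the labels give its strain as C57BL/6. Only the sample titles tell treated from untreated. For each condition there was 1 library of total RNA without ribosomal RNA and 1 of small RNA, so the 4 libraries formed 4 groups of 1. No difference below therefore has a replicate check, no test across samples was possible, and a ratio is one between libraries rather than between conditions. Brackets after a value hold exact 95% intervals that cover counting error only.

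In every cell cycle, origins of replication are licensed before S phase. The origin recognition complex and Cdc6 receive Cdt1 together with the ring of MCM2 to MCM7, and a double hexamer is closed around the DNA. Kinases then recruit Cdc45 and the GINS complex, which turn the loaded ring into the active CMG helicase. Geminin, the product of Gmnn, binds Cdt1 and so keeps origins from being licensed again. In the annotation of the mRNA table all 10 genes carry the term cell cycle, 8 carry DNA replication initiation, and the 6 MCM subunits carry MCM complex, a term given to 12 genes in all. Transcription of many genes of this machinery is known to depend on E2F factors.

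The total RNA libraries held 14606961 reads assigned to mRNA genes with manganese and 13972437 without, and the miRNA table held 9943263 small RNA reads with manganese and 10479102 without. The middle gene of the 11872 measured genes (at least 20 reads over both libraries) had a log2 ratio of 0.18 with column totals as the scale, so each ratio is to be read against 0.18. Median-ratio scaling takes 0.18 off each log2 ratio. Of 18 genes that mark neuroblastoma and neurons, 16 were measured, and they summed to 5727 RPM (reads scaled by the library's total of mRNA reads) with manganese and 5607 RPM without. The lowest ratios among them were those of Isl1 and Phox2a, at log2 -0.88 and -0.18, and the highest those of Th and Chga, at 0.91 and 0.52. The defining Gata3, Tubb3 and Stmn2 were all measured. Of 6 macrophage markers 0 were measured, and they summed to 11 reads with manganese and 4 without, with Ptprc at 0 reads in both libraries and Csf1r at 5 reads with manganese and 1 without. Fibroblast markers summed to 76 reads with manganese and 50 without. Col3a1 had 18 reads with manganese and 0 without, Pdgfra 11 with and 5 without, and Col1a2 5 with and 0 without. Of the defining markers, Col1a1 had 33 with manganese and 42 without, and Dcn 9 with and 3 without. Endothelial markers summed to 90 reads with manganese and 76 without, mostly from Pecam1 at 76 with and 68 without, while Cdh5 had 1 with and 2 without. Glial markers summed to 328 reads with manganese and 206 without, mostly from Mbp at 309 with and 189 without. Gfap had 4 with and 3 without, and Mog had 0 with and 2 without. The part of these marker genes in the results below was not tested. Genes of the mitochondrial genome took 1.42% of the mRNA reads with manganese and 1.96% without.

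The stretches of promoter that hold an E2F-type word are shown here as a description of these genes. The words searched on both strands were TTTCCCGC, TTTCGCGC, TTTGCCGC and TTTGGCGC. The promoter sequences come from RefSeq on GRCm38.p6 and run from 250 bases before to 50 bases after a start site; 8 of the 10 genes matched, Mcm7 with 2 windows. A word was found for 6 of these 8 genes (6 of their 9 windows), against 2.26% of all 32851 windows. The windows of Mcm2 and Cdc45 held 0 such words, and no promoter sequence of Mcm4 or Gmnn was used here. Any link between these words and the ratios below was not tested. A match describes the letters and is not a binding site. Below, 30 bases around 1 word of each gene, or 2 for Mcm6, are printed 5′ to 3′ on the strand of the gene, with the word in capitals.
Mcm5 chr8:75109345-75109374 (+): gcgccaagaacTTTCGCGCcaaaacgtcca
Mcm6 chr1:128359797-128359826 (-): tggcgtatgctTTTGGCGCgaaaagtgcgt
Mcm6 chr1:128359734-128359763 (-): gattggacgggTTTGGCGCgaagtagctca
Mcm7 chr5:138171849-138171878 (-): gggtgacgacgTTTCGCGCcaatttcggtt
Mcm3 chr1:20820263-20820292 (-): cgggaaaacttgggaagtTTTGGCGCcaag
Cdt1 chr8:122568035-122568064 (+): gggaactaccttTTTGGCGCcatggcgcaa
Cdc6 chr11:98908002-98908031 (+): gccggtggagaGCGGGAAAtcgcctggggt
The capitals of Cdc6 are the reverse complement of TTTCCCGC. Counted from 0 at the first transcribed base, the words begin at -153 in Mcm5, -110 and -47 in Mcm6, 16 in Mcm7, 38 in Mcm3, 32 in Cdt1 and -138 in Cdc6. The Cdc6 window lies inside the gene's span in the GRCm38.p6 gene table, not at its outer end. In Mcm5 and Mcm6 a word on the other strand overlaps the first one printed, as in the run of Mcm5 whose next letters complete GCGCCAAA.

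The Mcm6 window held the most words of the E2F type, 3, and its 250 bases before the start, chr1:128359706-128359955 on the minus strand, are shown whole with these words in capitals, the first 2 of which overlap.
Mcm6 promoter: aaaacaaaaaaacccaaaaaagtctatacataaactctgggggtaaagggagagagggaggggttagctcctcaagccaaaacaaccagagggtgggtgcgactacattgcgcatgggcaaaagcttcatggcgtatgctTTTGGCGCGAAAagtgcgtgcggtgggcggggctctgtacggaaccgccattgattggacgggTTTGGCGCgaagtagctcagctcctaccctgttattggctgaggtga
CCAAT, the word read by NF-Y, was found for 6 of the 8 genes (Cdc45, Mcm2, Mcm3, Mcm5, Mcm6 and Mcm7). By windows that was 7 of 9, against 37.4% of all windows. The word TTTGAA, known as the CHR of late cell cycle genes, occurred for 2 of the 8 genes (Cdc45 and Mcm2). By windows that was 2 of 9, against 17.9%. CACGTG, the E-box read by MYC and MYCN, was in 0 of the 9 windows, against 7.15% of all, and that says only that these letters are not in these windows.

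The 6 subunits of the helicase ring were all lower in the Mn-treated library, by 18.3% to 42.1% in RPM. Together they took 18416 reads with manganese and 26113 without, which is 0.126% of the mRNA reads with and 0.187% without, a log2 ratio of -0.57 [-0.60 to -0.54]. Cdc6, Cdt1 and Cdc45 were lower too, by 68.7%, 39.2% and 46.1%. Gmnn, the gene of the inhibitor, had about equal counts in both libraries. In bulk RNA, fewer cells that express a gene and less RNA per cell cannot be told apart.

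Over all 10 genes the median log2 ratio was -0.63, against 0.18 for all measured genes. The 10 genes were chosen with earlier results of these data known. The shares of all measured genes given here are therefore background and not a test. All 10 were measured, and 9 lay below 0, where 35.2% of all measured genes did. At least 1.5-fold lower were 5 of them, Mcm3, Mcm5, Cdc6, Cdt1 and Cdc45, against 5.97% of all measured genes, and 0 were at least 1.5-fold higher, against 21.6%. With median-ratio scaling the first count became 7, with Mcm2 and Mcm6 added, against 11.3%, and the second stayed 0, against 13.4%. At least 2-fold lower was Cdc6 alone, against 1.7% of all measured genes. With median-ratio scaling it was Cdc6 and Cdc45, against 2.74%, and the same genes with TMM scaling, against 2.71%. By the authors' FPKM 6 genes were at least 1.5-fold lower, Mcm4 being the one added, against 6.86%, and all 10 lay below 0, against 36.7%. Most of these genes are well covered. Among the 4679 genes whose reads over both libraries reached 1000, the median log2 ratio was 0.07 and 4.32% were at least 1.5-fold lower.

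**Figure D1:**
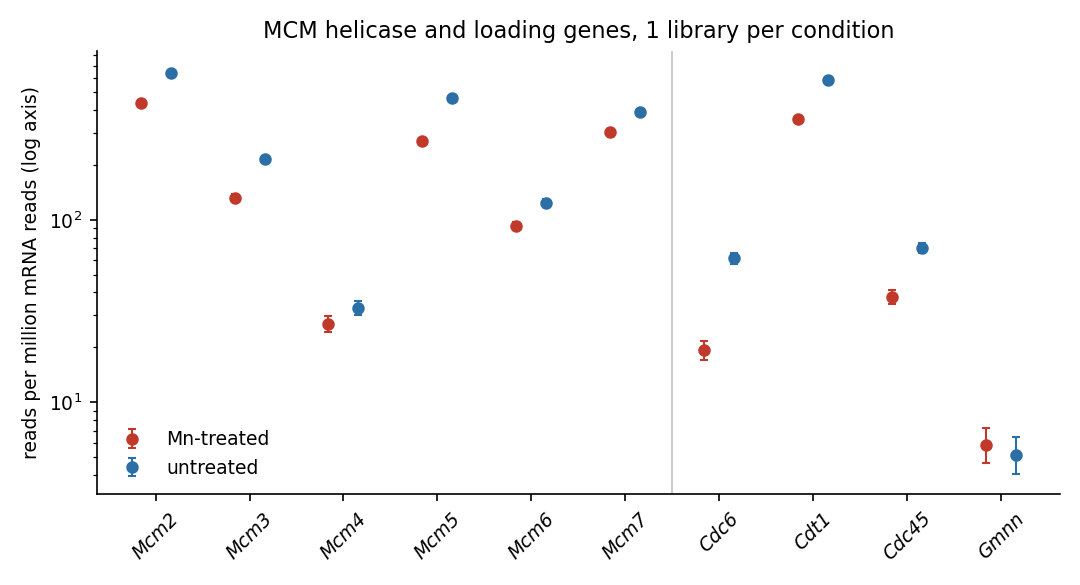
RPM of each gene on a log axis, in the Mn-treated library (left, red) and the untreated library (right, blue), with exact Poisson 95% intervals; the grey line parts the MCM subunits from the other genes. Every gene but Gmnn is lower with manganese, and the intervals of Gmnn alone overlap; those of Mcm4 are narrowly apart.

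Of the subunits, Mcm5 had the lowest ratio. Mcm5, which with Mcm2 forms the gate of the ring, had 3938 reads (269.6 RPM) with manganese and 6510 (465.9 RPM) without, a log2 ratio of -0.79 [-0.85 to -0.73]. Only 3.01% of the measured genes had a lower ratio. Mcm3, a partner of Mcm5 in the ring, had 1932 reads with manganese and 3017 without, at -0.71 [-0.79 to -0.62]. The intervals of Mcm5 and Mcm3 overlap.

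Mcm2, the subunit whose tail also binds histones, had the most reads of the ring, 6357 with manganese and 8966 without. Its log2 ratio was -0.56 [-0.61 to -0.51], an interval that overlaps neither that of Mcm3 nor that of Mcm5. Mcm6 and Mcm7, which flank Mcm4 in the ring, were nearer to the middle gene. Mcm6 had 1351 reads with manganese and 1730 without, at -0.42 [-0.52 to -0.32], and Mcm7 had 4445 with and 5430 without, at -0.35 [-0.41 to -0.30]. Their intervals overlap each other, and 10.5% and 13.4% of the measured genes lay lower.

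Mcm4, which with Mcm6 and Mcm7 forms the part of the ring that unwinds DNA in vitro, had the fewest reads, 393 with manganese and 460 without. By counts it was the least lowered subunit, at -0.29 [-0.49 to -0.09]. By the authors' FPKM it was 4.44 with manganese and 7.47 without, and in the authors' deposited table its log2 fold change is -0.75, beyond the counting interval. The length implied by reads over FPKM was 1.39 times longer in the Mn-treated library for Mcm4, relative to the middle gene. A shift of at least 1.3 times either way was found in 7.59% of the 9550 genes with FPKM above 1 in both libraries. For the other 5 subunits this ratio lay between 0.952 and 1.00. Whether a different mix of Mcm4 transcripts underlies this was not tested, and its ratio is uncertain between these values.

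The make-up of the MCM2-7 reads does not depend on how the libraries are scaled. Mcm5 made up 21.4% [20.8% to 22.0%] of them with manganese and 24.9% [24.4% to 25.5%] without. Mcm7 made up 24.1% [23.5% to 24.8%] with manganese and 20.8% [20.3% to 21.3%] without, so Mcm7 ranked above Mcm5 with manganese and below it without. Mcm2 led with 34.5% with manganese and 34.3% without, and its intervals overlap. Mcm3 took 10.5% with manganese and 11.6% without, Mcm6 took 7.34% with and 6.63% without, and Mcm4 took 2.13% with and 1.76% without. The intervals of Mcm3 and Mcm6 do not overlap between the libraries, and neither do those of Mcm4, narrowly. As a share of the summed FPKM, Mcm4 turned the other way, with 1.66% with manganese and 1.93% without.

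**Figure D2:**
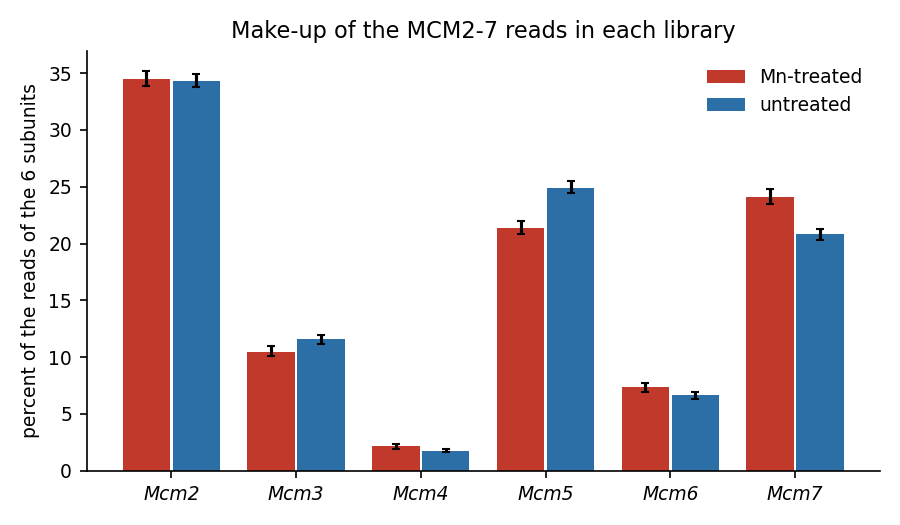
Share of each subunit in the reads of Mcm2 to Mcm7, in percent, in the Mn-treated library (left bars, red) and the untreated library (right bars, blue), with exact binomial 95% intervals. The Mcm5 bar is shorter in the Mn-treated library, at 21.4% against 24.9%, and the Mcm7 bar is taller, at 24.1% against 20.8%.

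The loading factors differed more among themselves than the subunits did. Cdc6, the ATPase that joins the origin recognition complex and starts ring loading, had 281 reads (19.2 RPM) with manganese and 861 (61.6 RPM) without. Its log2 ratio of -1.68 [-1.88 to -1.48] was the lowest of the 10 genes, and 0.522% of the measured genes lay lower. Cdt1, which brings the MCM ring to the origin, had 5220 reads (357.4 RPM) with manganese and 8208 (587.4 RPM) without, at -0.72 [-0.77 to -0.67]. That is a fold of 0.608, close to the 0.613 of Mcm3. Cdc45, which stays on the active helicase at the fork, had 552 reads with manganese and 980 without, at -0.89 [-1.05 to -0.74].

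Gmnn had 85 reads (5.82 RPM) with manganese and 72 (5.15 RPM) without, at 0.17 [-0.29 to 0.65]. A log2 ratio of -0.01 was obtained with median-ratio scaling. By the authors' FPKM it was 3.61 with manganese and 4.04 without, and the log2 fold change in the authors' deposited table is -0.16. The implied length of Gmnn shifted by 1.28 times. The counting interval of Gmnn includes 0, and at this depth a change within that interval was not detectable. Its interval overlaps that of Mcm4 and lies above those of the other genes, but only narrowly above that of Mcm7. The lower end for Gmnn is -0.2946 and the upper end for Mcm7 is -0.2954. These intervals leave out the shift in implied length, and by FPKM Gmnn was at -0.16 and Mcm7 at -0.27.

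**Figure D3:**
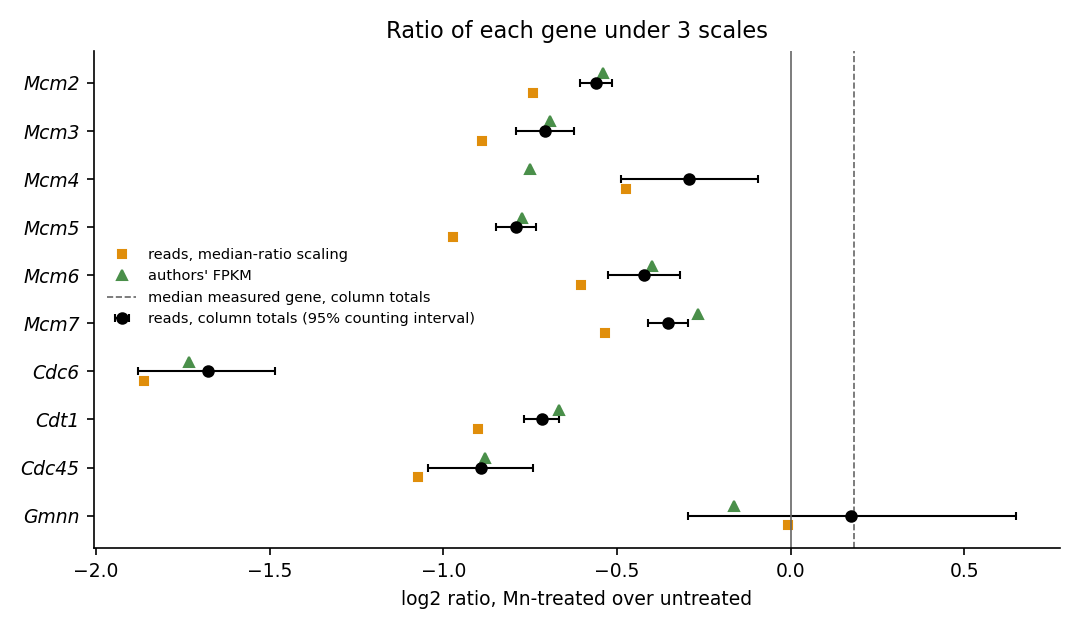
Log2 ratio of the Mn-treated over the untreated library for each gene, from reads with column totals (black, 95% counting interval), from reads with median-ratio scaling (orange) and from the authors' FPKM (green); the dashed line is the median measured gene at 0.18. Median-ratio scaling moves every gene left by 0.18, and Mcm4 and Gmnn are the genes for which FPKM falls furthest from the reads.

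Levels per length, on the authors' FPKM scale, spread widely although the ring holds each subunit once. Cdt1 was highest in both libraries, at 124.0 FPKM with manganese and 196.7 without. Mcm2 stood at 76.7 FPKM with and 111.4 without, Mcm5 at 59.4 with and 101.5 without, and Mcm7 at 83.1 with and 99.9 without. These were the abundant subunits. The middle of the order was held by Mcm3 at 25.8 FPKM with and 41.7 without, Mcm6 at 18.7 with and 24.6 without, and Cdc45 at 10.85 with and 19.98 without. Cdc6, at 3.81 FPKM with and 12.65 without, joined Mcm4 and Gmnn at the low end. The order differed between the libraries in 2 places. Mcm7 led the subunits with manganese but stood below both Mcm2 and Mcm5 without, and Cdc6 stood below Mcm4 with manganese and above it without. With 1 library per condition it cannot be said which neighbours in this order differ beyond replicate spread.

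The highest and the lowest subunit differed 18.7-fold in FPKM with manganese and 14.9-fold without. The lowest was Mcm4 in both, whose level rests on an implied length that differs between the libraries. The median measured gene stood at 5.63 FPKM with manganese and 4.80 without, and 95.9% of the measured genes had less than the 111.4 FPKM of Mcm2 in the untreated library. Cdt1 exceeded its inhibitor Gmnn 34.3-fold in FPKM with manganese and 48.7-fold without, and in reads 61.4-fold with and 114-fold without. Cdc6 exceeded Orc1, the subunit of the origin recognition complex it binds beside, 4.19-fold in FPKM with manganese and 10.2-fold without. In reads it was 4.93-fold with and 9.67-fold without. Orc1 was scarce, at 0.91 FPKM with manganese and 1.24 without, which limits this ratio. These ratios are of RNA and do not give the ratio of the proteins.

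The further gene groups were also chosen with earlier results of these data known, and their counts stand beside the shares of all measured genes. With column totals 5.97% of these were at least 1.5-fold lower and 21.6% higher. With median-ratio scaling 11.3% were lower and 13.4% higher. The 7 genes of origin recognition had a median log2 ratio of 0.13, which was -0.056 with median-ratio scaling and -0.20 by the authors' FPKM. Of them 2 were at least 1.5-fold lower (5.97% of all genes) and 0 higher (21.6%). By FPKM 1 was lower (6.86%) and 1 higher, where 2573 of all 11833 genes with an FPKM ratio were higher. Orc1, its largest subunit, had 57 reads with manganese and 89 without, at -0.70 [-1.21 to -0.21]. Lrwd1, which binds the complex on chromatin, had 2067 reads with manganese and 3113 without, at -0.65. Orc6, the smallest subunit, was at -0.23 [-0.51 to 0.05], and Orc4 and Orc3 were at 0.27 and 0.49.

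The paralogs and binders of the ring had a median of 0.04, which was -0.14 with median-ratio scaling. Of the 5 measured, 0 were past 1.5-fold either way (5.97% of all genes lower, 21.6% higher), or 1 lower with median-ratio scaling (11.3%). Mcm10, which helps the loaded helicase start, had 696 reads with manganese and 981 without, at -0.56 [-0.70 to -0.42] on partly fractional counts. Mcm8 and Mcm9, which form a helicase of recombination apart from the ring, were at -0.20 [-0.63 to 0.22] and 0.10 [-0.15 to 0.36]. Mcmbp, a chaperone of MCM subunits, had 841 reads with manganese and 783 without, at 0.04 [-0.10 to 0.18]. Mcm3ap, a gene named for binding Mcm3, was at 0.24. Gmnc and Mcidas, relatives of geminin, and Mcmdc2 had 0 reads in both libraries.

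All 4 GINS genes, whose complex joins Cdc45 on the ring, lay below 0. Their median was -0.61, and 3 were at least 1.5-fold lower (5.97% of all genes). Gins2 had 395 reads with manganese and 589 without, at -0.64 [-0.83 to -0.45]. Gins1, on 47 reads with and 69 without, was at -0.61 [-1.18 to -0.06], and Gins3, on 52 with and 76 without, at -0.61 [-1.15 to -0.08]. These intervals reach nearly to 0, and Gins4 was at -0.10 [-0.33 to 0.14]. For Gins3 the FPKM ratio was -1.35, with an implied length 1.69 times longer. Of 9 firing and fork factors 3 were at least 1.5-fold lower (5.97% of all genes), 1 of them past 2-fold (1.7%), and 0 higher (21.6%), with a median of -0.39. With median-ratio scaling 4 were lower (11.3%). Timeless, of the fork protection complex, had 339 reads with manganese and 656 without, at -1.02, and Recql4 had 1234 with and 2127 without, at -0.85. Tipin, the partner of Timeless, was at -0.21 on fractional counts, and Topbp1 was at 0.31. The other one past 1.5-fold was Clspn, of the replication checkpoint, at -0.65 on 66 reads with and 99 without, named after its value was seen.

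Of 7 firing kinases and cyclins 2 were at least 1.5-fold lower (5.97% of all genes) and 1 higher (21.6%), with a median of -0.37. The lower ones were Ccne1, the cyclin of the entry into S phase, at -0.81 on 303 reads with manganese and 510 without, and its kinase Cdk2, at -0.80 on 413 with and 687 without. Dbf4, the activator of the kinase that phosphorylates the MCM ring, had 69 reads with manganese and 36 without, at 0.87 [0.273 to 1.498] on fractional counts. Its kinase Cdc7 was at 0.05 [-0.27 to 0.36].

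Further genes remove Cdt1 after licensing or take the ring off finished DNA. The 11 measured genes of licensing turnover had a median of 0.02 (-0.16 with median-ratio scaling), with 0 at least 1.5-fold lower (5.97% of all genes) and 1 higher (21.6%). With median-ratio scaling 1 was lower (11.3%) and 0 were higher (13.4%). Pcna, the sliding clamp on which Cdt1 is degraded, had 2421 reads with manganese and 3414 without, at -0.56, and Rbx1, a ligase subunit, was at -0.37. Cul4b and Cul1, scaffolds of the ligases, were at 0.70 and 0.55. The 8 unloading genes had a median of 0.03 (-0.15 with median-ratio scaling), with 1 lower (5.97% of all genes) and 1 higher (21.6%) by 1.5-fold. With median-ratio scaling 2 were lower (11.3%), 1 of them past 2-fold (2.74%). Lrr1, which directs the ligase to the finished helicase, had 72 reads with manganese and 138 without, at -0.998 [-1.434 to -0.581]. Traip, another ligase of the helicase, was at -0.50, Cul2 at 0.32 and Ubxn7 at 0.93.

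Among the E2F, RB and MYC genes, 2 of 15 were at least 1.5-fold lower (5.97% of all genes) and 1 higher (21.6%), with a median of -0.03. With median-ratio scaling 3 were lower (11.3%) and the median was -0.21. By FPKM 3 were higher, as were 2573 of all 11833 genes with an FPKM ratio. Among the 3 was Rbl2, at 1.42 by FPKM but 0.01 by reads, with an implied length of 0.379 times, named after its value was seen. The lower ones with column totals were E2f1, on 209 reads with manganese and 497 without at -1.31 (fractional counts), and E2f2, on 1279 with and 2458 without at -1.01. Rb1, the restraint of E2F factors, was at 0.79 [0.39 to 1.21] on 145 reads with and 80 without, and E2f3 was at 0.56. The 8 measured G1 cyclins and CDK inhibitors had a median of -0.17 and 0 past 1.5-fold (5.97% of all genes lower, 21.6% higher). With median-ratio scaling the median was -0.36 and 1, Cdkn2a, was lower (11.3%). With column totals the named genes were Cdkn2a at -0.46, Cdkn1a at -0.26, Cdkn2c at 0.06 and Cdkn1b at 0.27. The 14 mitosis genes had a median of 0.12 (-0.06 with median-ratio scaling), with 1 past 1.5-fold on the lower side (5.97% of all genes) and 3 on the upper (21.6%), an upper share near that of all genes. Aurkb was at -0.59 and Cdc20 at -0.25, while Cenpf was at 0.95 and Mki67 at 0.91, the last with an implied length 2.28 times longer and an FPKM ratio of -0.27. The other one on the upper side was Tpx2, of the spindle, at 0.64 on 458 reads with and 280 without, named after its value was seen.

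**Figure D4:**
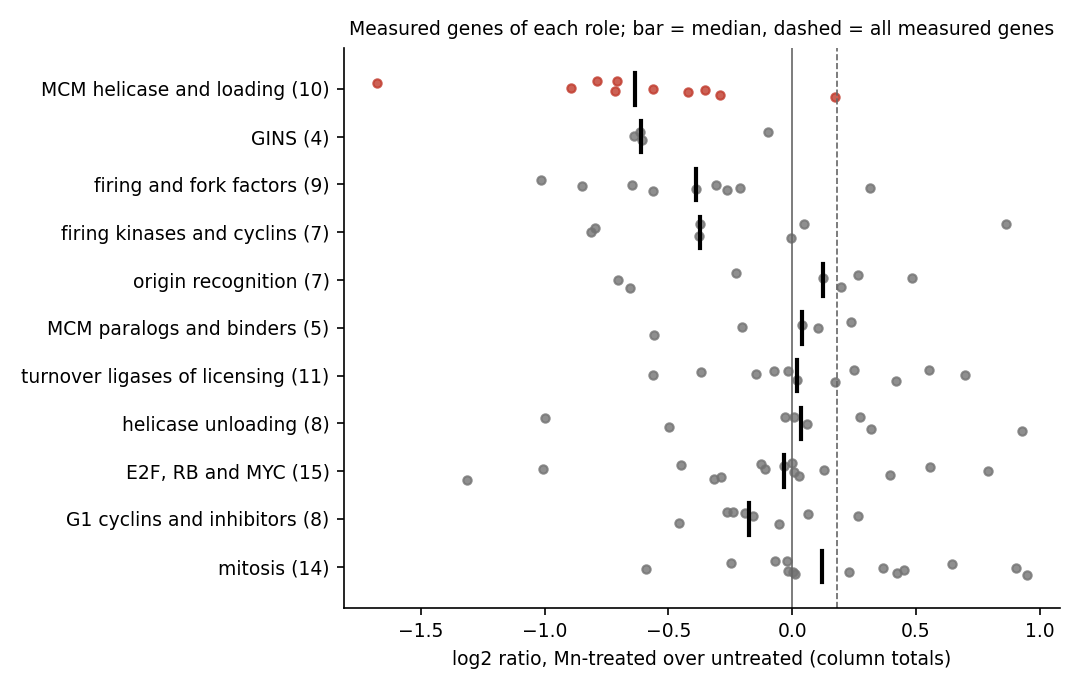
Log2 ratio of the Mn-treated over the untreated library (column totals) for each measured gene, by role; the number of genes stands in brackets, black bars are medians, the solid line is 0 and the dashed line the median measured gene at 0.18. The helicase and loading genes (red) have a median of -0.63 and GINS one of -0.61, while origin recognition is at 0.13 and mitosis at 0.12.

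Genes next to the members in the GRCm38.p6 gene table give a local comparison. Prkdc, the neighbour of Mcm4, had 247 reads with manganese and 207 without, at 0.19 [-0.08 to 0.46]. Cops6, next to Mcm7, was at -0.22 [-0.31 to -0.13]. The spans of Ap4m1 and Mcm7 overlap, as do those of Ufd1 and Cdc45. No source used here says whether the counting used strand, so reads of such an overlap cannot be told apart. Ap4m1 had 415 reads with manganese and 437 without, at -0.14 [-0.34 to 0.06], and Ufd1 had 311 with and 296 without, at 0.01 [-0.23 to 0.24]. Read against the middle gene at 0.18, the interval of Ap4m1 lies below it and that of Ufd1 includes it. The interval of Ap4m1 overlaps that of Mcm7, at -0.41 to -0.30, while that of Ufd1 lies above that of Cdc45.

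Mcm7 also carries miRNAs. The genes of miR-106b, miR-93 and miR-25 lie within its span on chromosome 5, in an intron and on the same strand, so the small RNA libraries give a separate readout of this locus. The mature sequences are shown because they fall into families by their seed (bases 2 to 8, in capitals). They are from RefSeq on GRCm38.p6, and all 6 equal the sequences in the miRNA table, which writes T for U.
miR-106b-5p chr5:138165787-138165807 (-): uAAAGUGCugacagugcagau
miR-93-5p chr5:138165574-138165596 (-): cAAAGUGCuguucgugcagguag
miR-25-3p chr5:138165332-138165353 (-): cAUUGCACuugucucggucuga
miR-106b-3p chr5:138165746-138165767 (-): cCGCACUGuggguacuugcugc
miR-93-3p chr5:138165536-138165557 (-): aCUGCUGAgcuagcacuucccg
miR-25-5p chr5:138165370-138165391 (-): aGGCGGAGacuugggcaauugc
The seed AAAGUGC is shared by miR-106b-5p and miR-93-5p, and each of the other 4 has a seed of its own within the cluster.

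Both arms of miR-106b were lower with manganese, and miR-25-3p was nearly level. For miR-106b-3p there were 8335 reads with manganese and 11704 without, at -0.41 [-0.45 to -0.37]. For miR-106b-5p there were 2296 with and 3382 without, at -0.48 [-0.56 to -0.41]. Of the 6 mature forms 4 lay below 0. The guide arm miR-93-5p had 6522 reads with manganese and 7351 without, at -0.10 [-0.15 to -0.05]. The most abundant product, miR-25-3p, had 64293 reads with manganese and 69947 without, at -0.05 [-0.06 to -0.03]. The minor arms were scarce, with miR-25-5p at 223 reads with and 203 without and miR-93-3p at 49 with and 35 without, and their intervals include 0. The median of the 1084 measured small RNAs was 0.09, and 44.6% of them lay below 0. These scales differ from that of the mRNA table, so the ratios of Mcm7 and its miRNAs are set side by side with no comparison of size.

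Other miRNAs with these seeds are made elsewhere in the genome. Outside Mcm7, 3 mouse miRNAs with the seed AAAGUGC were measured, and 2 were lower with manganese. These were miR-20a-5p of chromosome 14 at -0.38 and miR-17-5p at -0.28, while miR-20b-5p was at 0.83 [-0.07 to 1.80] on few reads. Of 4 with the seed AUUGCAC outside Mcm7, 1 was lower, miR-32-5p at -0.17. The others were miR-92a-3p at 0.11, miR-363-3p at 0.37 and miR-92b-3p at 0.75. Of all measured small RNAs 44.6% lay below 0.

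The table also lists, without the mouse prefix, longer forms that start with a whole mature sequence of the cluster and end in 2 further letters. None of the 4 such forms, of miR-25-3p, miR-106b-3p, miR-93-5p and miR-25-5p, continues with the letters of the RefSeq hairpin. The longer form of miR-25-3p had 5443 reads with manganese and 2786 without, which is 7.81% with and 3.83% without of both forms together. That of miR-93-5p took 4.68% with and 2.55% without, and that of miR-106b-3p took 4.03% with and 2.27% without. For miR-25-5p the share was the other way, 3.04% with and 8.14% without, on 7 and 18 reads. Summed over both forms, miR-25-3p was at 0.02, miR-93-5p at -0.06 and miR-106b-3p at -0.39. A higher share of longer forms with manganese was common in these libraries, being found for 72 of 93 forms of any mouse miRNA with up to 3 further letters and at least 100 reads, so it is not particular to the Mcm7 cluster.

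**Figure D5:**
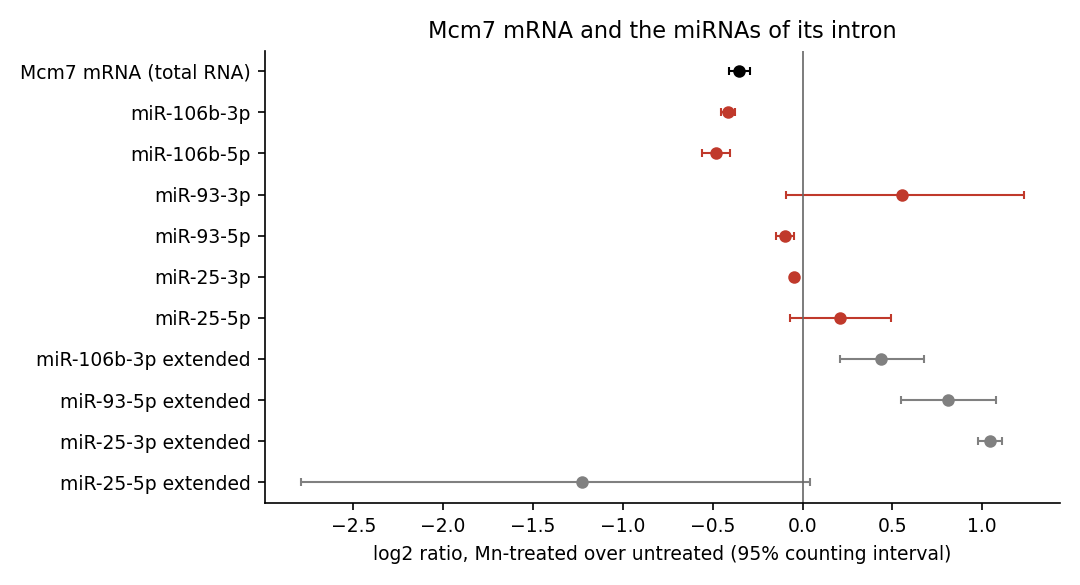
Log2 ratio of the Mn-treated over the untreated library for Mcm7 in total RNA (black), for the 6 mature miRNAs of its intron (red) and for their longer forms (grey), with 95% counting intervals. Mcm7 and both miR-106b arms lie below 0, miR-25-3p lies at -0.05, and the longer forms of miR-106b-3p, miR-93-5p and miR-25-3p lie above 0, while that of miR-25-5p has an interval that includes 0.

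Circular RNAs gave little on these genes. Of 2253 circRNAs, 1 came from Mcm6 and 1 from Mcm5, and the other 8 genes had none listed. The circRNA of Mcm6, made of annotated exons with a spliced length of 1113 bases, had 4 junction reads with manganese and 6 without, a ratio of 0.824 [0.171 to 3.48]. That of Mcm5, a single exon of 397 bases, had 0 with manganese and 4 without, and the interval of its ratio reaches up to 1.87. The libraries held 9433 junction reads with manganese and 11665 without, so a difference was not detectable at this depth.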

How the data were processed

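The members and gene lists were chosen with earlier results of these data known. Bowtie2, StringTie, fastp 0.18.0 and the build mm9 are named per the submitters' processing notes; tool roles, the counting program and the callers were not given in the sources used here. Deposited by the authors were estimated counts and FPKM per mRNA gene with log2 fold changes of the FPKM, whole counts of circRNA junction reads, and counts and TPM per small RNA. Columns were assigned by the condition in their name and the RNA class of the table; 0 were left out. The lncRNA table was not used.

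Estimated counts were rounded; those of the 10 members were whole. Ratios are Mn-treated over untreated, from counts plus 0.5 over column totals, with exact conditional (Clopper-Pearson) 95% intervals for counting error only; PCR reads are not independent molecules. Alternatives were median-ratio scaling, TMM (edgeR 4.0.16), FPKM, 1 or nothing added, and minimums of 0 or 100 reads. The rule for named genes took all members, 5 genes chosen singly (Orc1, Orc6, Mcm10, Dbf4 and Mcmbp), and the 2 lowest and 2 highest of each list reaching 50 reads in either library, or every measured gene of a list under 5. The ratio step was tested on simulated data. Python 3.11.15 and scipy 1.17.1 were used.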

Additional observations from a re-analysis of the deposited data

How the results depend on the processing

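The sign of the log2 ratio held for the 6 MCM subunits, Cdc6, Cdt1 and Cdc45 under median-ratio scaling, TMM, the authors' FPKM and both other additions to the counts. Gmnn, whose interval includes 0, was below 0 with both scalings and with FPKM. The median of the 10 genes was -0.82 with median-ratio scaling, -0.81 with TMM and -0.68 with FPKM, and the count at least 2-fold lower became 2 with either scaling. For all measured genes the median log2 ratio was -1.0e-05 with median-ratio scaling, 0.0067 with TMM, 0.16 with FPKM, 0.17 with at least 100 reads and 0.21 with no minimum. Genes at least 1.5-fold lower and higher numbered 1343 and 1587 with median-ratio scaling, 1306 and 1614 with TMM, and 1401 and 3912 with no minimum. Those at least 2-fold lower and higher numbered 325 and 547 with median-ratio scaling, 322 and 555 with TMM, 783 and 2090 with no minimum, and 75 and 485 with at least 100 reads. Some list medians changed sign. Origin recognition was at -0.20 with FPKM. With median-ratio scaling and with TMM, origin recognition was at -0.056 and -0.049, MCM paralogs and binders were at -0.14 and -0.14, licensing turnover at -0.16 and -0.16, unloading at -0.15 and -0.14, and mitosis at -0.062 and -0.055. Both scalings take 0.18 off each log2 ratio by construction; the cause of the shift with FPKM was not tested. The authors' TPM kept the direction of all 6 miRNAs of the Mcm7 intron. Ordering the levels by counts per annotated length was not run, since the files give no length. No paired analysis was possible because each group holds 1 library. Few reads limit the precision for Gmnn, Dbf4, Gins1, Gins3, Orc1, Lrr1, Mcm8, miR-93-3p and the circRNAs, among others.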
